A study of Mus musculus with 16 samples.

Results

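The 10 genes described here encode transcription factors of stomach and glandular epithelial identity: Gata4, Gata6, Sox2, Hnf4a, Hnf4g, Foxa1, Foxa2, Foxq1, Barx1 and Spdef. They were chosen by symbol for their known roles, with earlier results of these data in view, out of 24964 genes in a count table of mouse stomach RNA. RNA of 16 libraries, 4 in each of 4 groups, came from 4 mm biopsies taken along the corpus lesser curvature; all mice were female and 8 weeks old. WT-S and WT-A were wild-type C57BL/6 mice. TTP-S and TTP-A were congenic C57BL/6 mice of genotype TTPΔARE. This allele of Zfp36, the gene of the RNA-decay factor tristetraprolin (TTP), lacks the AU-rich element (ARE) of its own transcript. WT-A and TTP-A had gastric inflammation brought on by adrenalectomy, the removal of the adrenal glands. For WT-S and TTP-S the treatment is given only as SPEM, spasmolytic polypeptide-expressing metaplasia, the mucous lineage of injured corpus glands. The labels leave unsaid whether these mice had an operation. The questions were whether these regulators differed after adrenalectomy in either genotype, whether they differed by genotype, and whether both genotypes responded alike.

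The epithelium of the stomach arises from foregut endoderm, and a few families of transcription factors keep its identity. GATA and FOXA factors bind closed chromatin and open it for others, HNF4 nuclear receptors drive genes of mature epithelial cells, and SOX2 marks the foregut against the intestine. FOXQ1 and SPDEF act in mucus-secreting cells: FOXQ1 is required for Muc5ac in surface mucous cells and SPDEF for maturation of antral mucous gland cells. BARX1 differs from the others in that it is made by the stomach mesenchyme, where it restrains WNT signalling and so favours stomach over intestinal fate.

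All 10 genes passed the filter on low counts, with 115 to 11435 counts in a library of 17453930 to 25849472 counts. Levels are CPM, a gene's share of its library, scaled with edgeR's TMM factors (trimmed mean of M-values), and a gene is called changed at an adjusted p under 0.05 in edgeR's quasi-likelihood test over 15385 genes. The labels do not say that each library came from its own mouse, so p-values measure the spread between these samples. The targeted gene matched the labels: Zfp36 was at 55.1 to 88.6 CPM in the 8 WT libraries and at 110.5 to 131 CPM in the 8 TTPΔARE libraries, without overlap. Markers of the labelled tissue were present, and no gene of the epithelium, parietal or chief cell lists was at 0 in all libraries.

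WT-A 3 and WT-A 4 stood apart from the other 14 libraries in a way that touches these genes. Genes of higher transcript GC content read higher in this pair: the Spearman rho across genes between GC content and distance from the median library was 0.73 and 0.76, against at most 0.31 in absolute value elsewhere. The genes here span GC contents from 41.5% in Hnf4g to 65.0% in Barx1. Gata4 and Barx1 were higher in both of these libraries than in WT-A 1 and WT-A 2, and Gata6, Sox2, Hnf4g and Foxa1 were lower in both. On the log2 scale the pair differed from the other WT-A libraries by 0.30 for Barx1, -0.38 for Sox2 and -0.51 for Hnf4g. Values from the 14 libraries without the pair are therefore given beside those from 16 where they change a result.

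**Figure D1:**
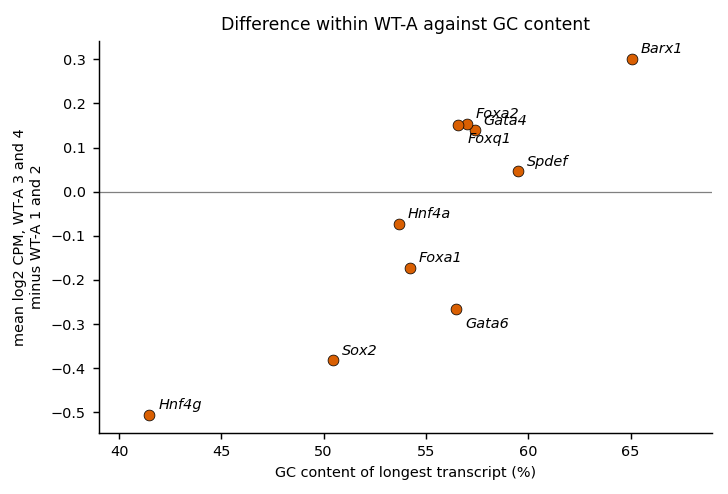
Difference in mean log2 CPM between the library pair WT-A 3 and WT-A 4 and the pair WT-A 1 and WT-A 2 (vertical axis) against GC content of the longest transcript in percent (horizontal axis), 1 point per gene. Hnf4g, at 41.5% GC, lies lowest at -0.51 and Barx1, at 65.0%, highest at 0.30.

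Short stretches of 2 kinds are shown because the study concerns a factor that binds AU-rich elements and because members of these families bind each other's genes. The first kind is the ARE core TATTTAT in the 3′ untranslated region of the longest transcript. It was found once each in Sox2, Foxa2 and Foxq1 and in none of the other 7 genes. Of 14501 tested genes with such a region, 29.4% held it. Capitals mark the core in these 25-base sites from the GENCODE annotation of GRCm38.
Sox2: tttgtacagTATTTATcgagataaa
Foxa2: tgcgtgcttTATTTATggcttataa
Foxq1: taattaaatTATTTATatatttttg
The second kind is a GATA match (GATAA) or a forkhead match (TNTTTAC) on either strand of a promoter window, 250 bases before to 50 after a RefSeq start in GRCm38.p6. Windows were found for 6 of the 10 genes, 9 windows in all. Gata6 was left out of this search. A GATA match stood in 2 windows and a forkhead match in 2, against 25.4% and 12.4% of 32851 windows of the same length. A glucocorticoid response element, searched because adrenalectomy removes glucocorticoids, was in none of the 9 and in 0.475% of all. Capitals mark the match, which is a description of letters and not of binding, in these 30-base stretches of the genes called below.
Foxa2, chr2:148045630-148045659, minus strand: ctgttagccttgaGATAAtattaactttgt
Hnf4a, chr2:163506793-163506822, plus strand: gaagaatcaataaGATAAccgggcggggtg
Foxa1, chr12:57546235-57546264, minus strand: ttatactgctttGTAAACAaagtgagggcc
Spdef, chr17:27728981-27729010, minus strand: gtatttgttcagGTAAATAaggaaggatta
The match lay 182 bases before the start in Foxa2, 51 in Hnf4a, 141 in Foxa1 and 47 in Spdef. In the GENCODE annotation the Foxa2 and Foxa1 stretches are intronic, downstream of another start of the same gene. The Hnf4a stretch overlaps the first bases of an exon, and that of Spdef lies before the gene.

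Levels between genes were compared per length, as CPM per kilobase of the longest transcript. Gata4 stood highest, at 111 in WT-S and 127 in TTP-A, and in every group its lowest library was above the highest of Foxa1, the next gene. In WT-S the order then ran Foxa1 at 58.3, Hnf4a at 49.2, Gata6 at 48.6, Foxq1 at 45.5, Spdef at 36.7, Foxa2 at 33.9 and Barx1 at 28.6. From Foxa1 to Foxa2 each gene overlapped the next in that order, so neighbours did not differ beyond their spread. Over longer steps they did: Foxa1 (54.7 to 60.2), Gata6 (47.7 to 49.2) and Foxa2 (33.2 to 35.4) did not overlap one another in WT-S. Sox2 at 6.31 and Hnf4g at 3.18 stood far below and overlapped neither each other nor Barx1. Over all 16 libraries Gata4 lay at the 97.3rd percentile of genes tested, and Sox2 and Hnf4g at the 55.5th and 36.6th. With the union of all exons as length, Gata6 moved from 48.6 to 24.1 in WT-S and stood below Barx1, since its exons together span 6508 bases against 3234 in the longest transcript.

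**Figure D2:**
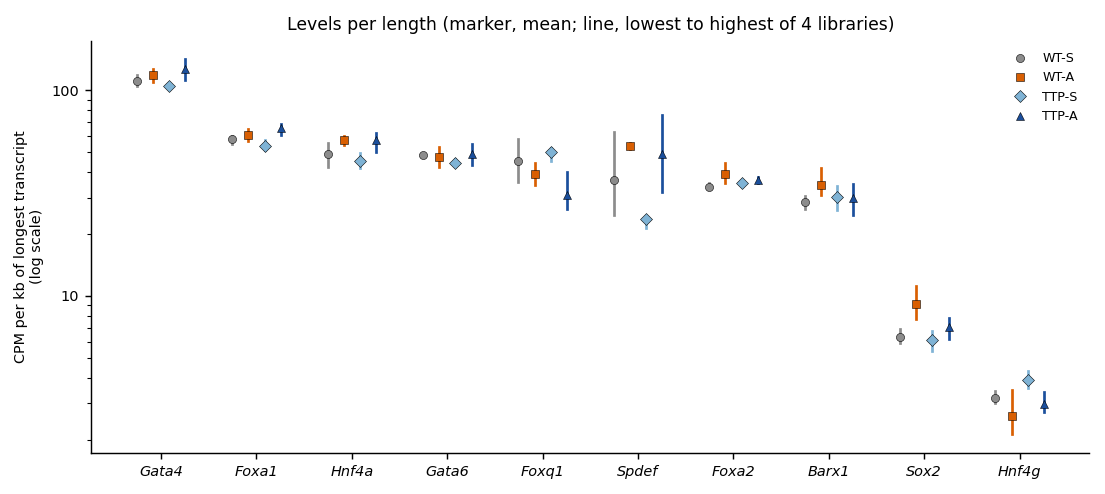
CPM per kilobase of longest transcript (vertical log axis) for the 10 genes ordered by their WT-S mean, with the mean (marker) and the lowest to highest of 4 libraries (line) in each group. Gata4 lies above 100 in the mean of every group, and Sox2 and Hnf4g lie below 12 in every library.

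After adrenalectomy in wild-type mice 2 of the 10 genes were called, both higher: Sox2 and Foxa2. Of all genes tested 18.8% were called in this comparison, 9.8% higher and 8.99% lower, so a count of 2 is near the background. The groups did not overlap for 3 of the 10, against 17.7% of all genes. In TTPΔARE mice 5 were called, where the background was 2.9%. As the genes were chosen with earlier results known, this count is a description and not independent evidence. Gata4, Hnf4a, Foxa1 and Spdef were higher in TTP-A (1.55% of all genes) and Foxq1 was lower (1.35%). The groups did not overlap for 6 of the 10, against 13.7% of all genes. The median log2 difference of the 10 was 0.15 in WT and 0.18 in TTPΔARE mice, with 0.0094 and -0.0010 over all genes. With offsets that adjust each library for GC content, the WT value of each of the 10 but Hnf4g was lower. Hnf4a went from 0.22 to 0.12, Foxa2 from 0.20 to 0.057 and Barx1 from 0.28 to 0.029. Hnf4g rose from -0.28 to 0.049. In TTPΔARE mice these offsets moved each of the 10 less. The medians were not recomputed with offsets, so they are not shown to be alike. Beside this, 3 of 8 general epithelial genes were called higher in WT-A and 0 by edgeR in TTP-A against TTP-S, with summed levels of 6326 to 7704 CPM in WT-S, 7558 to 8453 in WT-A, 6925 to 7665 in TTP-S and 6885 to 7100 in TTP-A. Summed levels of other cell types also differed between these groups. Leukocyte genes summed to 45.7 to 52.1 CPM in WT-S and 66.3 to 87.4 in WT-A, and to 41.6 to 56.1 in TTP-S and 61.4 to 78.4 in TTP-A, without overlap in either genotype. Chief cell genes were at 78569 to 153390 CPM in WT-S against 48992 to 103710 in WT-A, where 3 of 5 tested were called lower and 1 higher, and at 127240 to 134320 in TTP-S against 93824 to 143710 in TTP-A. Parietal cell genes were at 17127 to 20630 CPM in WT-S against 14217 to 21490 in WT-A, where 3 of 6 were called lower and 1 higher, and at 18831 to 19878 in TTP-S against 15749 to 18858 in TTP-A. Fibroblast genes were at 1260 to 1414 CPM in WT-S and 1429 to 2254 in WT-A, and at 1618 to 2025 in TTP-S and 1818 to 2040 in TTP-A. The sums of mucous neck, adipose and pancreas genes also did not overlap between TTP-S and TTP-A, nor did those of surface mucous genes given below. Mucous neck genes were at 799 to 1073 CPM in TTP-S and 1230 to 3765 in TTP-A (882 to 2993 in WT-S and 1913 to 2393 in WT-A). Adipose genes were at 195 to 312 CPM in TTP-S and 101 to 152 in TTP-A (139.96 to 182 in WT-S and 119 to 232 in WT-A). Pancreas genes were at 20.8 to 27.0 CPM in TTP-S and 15.3 to 19.4 in TTP-A (19.0 to 22.8 in WT-S and 22.7 to 27.4 in WT-A). Antrum genes (Gast and Pdx1), at low levels, did not overlap in WT: 1.70 to 3.97 CPM in WT-S and 4.87 to 6.35 in WT-A. They were at 4.01 to 6.37 CPM in TTP-S and 1.62 to 5.02 in TTP-A. The part of these cell types in the results was not tested, beyond the covariates named below.

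Between genotypes no member was called by edgeR in the main fit of all 16 libraries. For TTP-S against WT-S edgeR called 0 of 10 (background 0.0325%), with 2 at an unadjusted p under 0.05, Hnf4g and Spdef, and DESeq2 called 0 (0.663% of all genes). The groups did not overlap for 3, Gata6, Hnf4g and Spdef, against 6.74% of all genes. For TTP-A against WT-A edgeR called 0 (background 5.17%, of which 2.87% higher and 2.3% lower), with Sox2 and Foxq1 at an unadjusted p under 0.05, and DESeq2 called Sox2 alone, as lower (log2 -0.38, adjusted p = 0.0382). DESeq2 called 11.5% of all genes in this comparison, so 1 of 10 is near its background. The test of whether the response to adrenalectomy differed between genotypes called 0 (background 0.0585%), with Foxa1 and Foxq1 at an unadjusted p under 0.05, and DESeq2 called 0 (1.81% of all genes). The calls that differ between WT and TTPΔARE mice are therefore not shown to differ by genotype. The comparisons share groups, so their values are set side by side below and are not independent.

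The 5 calls in TTPΔARE mice had edgeR adjusted p-values from 0.0198 to 0.0457. They were lower with the DESeq2 Wald test, from 0.000239 to 0.0114 (5.61% of all genes called), and with edgeR when the WT libraries were left out of the model, from 0.00837 to 0.0240 (8.05%). All 5 held without TTP-A 2, whereas 1 held without TTP-S 1, TTP-S 2 or TTP-S 3, and 0 without TTP-S 4, TTP-A 1, TTP-A 3 or TTP-A 4. The log2 differences kept their signs in those 8 fits and ran from 0.22 to 0.33 for Gata4, 0.30 to 0.40 for Hnf4a, 0.26 to 0.32 for Foxa1, 0.77 to 1.22 for Spdef and -0.85 to -0.63 for Foxq1. Calls over all genes moved too, from 446 with all libraries to between 60 and 211 in the 7 fits that lost calls and 937 without TTP-A 2. With the squamous score of the libraries as a covariate Foxa1 and Foxq1 stayed called, and Gata4 (0.26), Hnf4a (0.34) and Spdef (1.05) passed just over the threshold at adjusted p-values from 0.0516 to 0.0559. With the smooth muscle score the same pair stayed called, and Gata4 (0.27), Hnf4a (0.33) and Spdef (0.996) were at 0.0593 to 0.0744. With the mucous secretory score, a covariate chosen after seeing the data, none of the 5 was called (adjusted p from 0.197 to 0.433), and 46 genes were called in all. In that fit Spdef was at 0.40 and Hnf4a at 0.20, while Gata4 was at 0.22, Foxa1 at 0.25 and Foxq1 at -0.55. The score was computed from the list of mucous genes read beside Spdef and Foxq1 below.

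**Figure D3:**
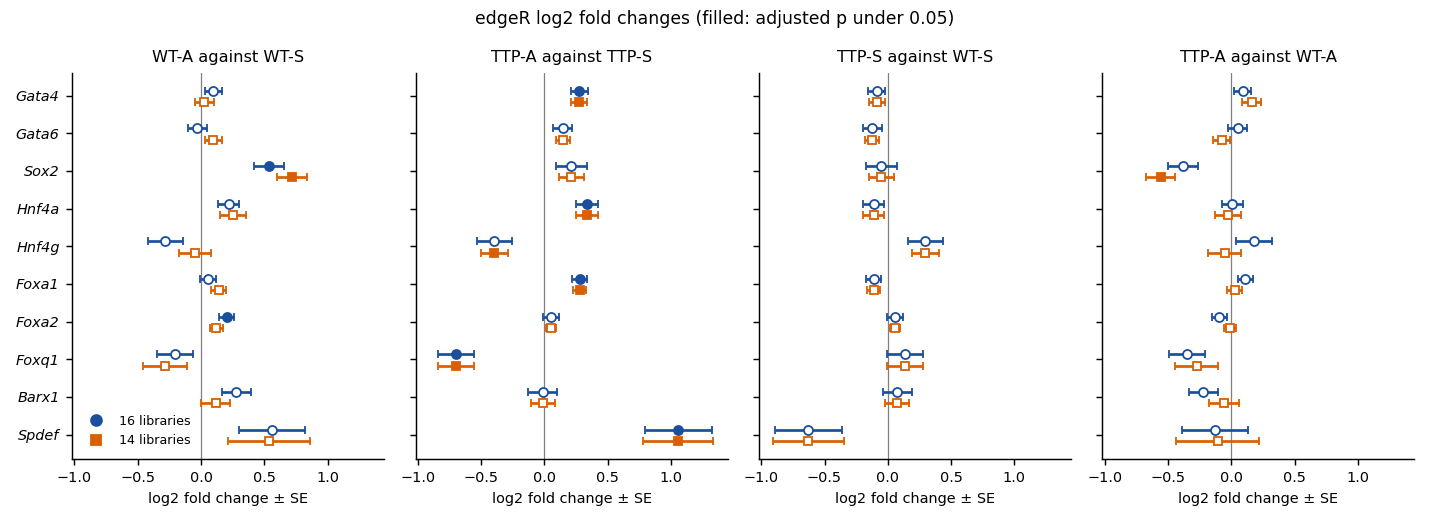
Log2 fold change with its standard error (horizontal axis) for each gene in 4 comparisons, from edgeR fits of 16 libraries (circles) and of 14 libraries without WT-A 3 and WT-A 4 (squares). Filled markers have an adjusted p under 0.05: with 16 libraries these are 2 genes in the WT comparison after adrenalectomy and 5 in that of TTPΔARE mice.

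Gata4 (chromosome 14, 63198922 to 63271692, minus strand of GRCm38) and Gata6 encode zinc-finger factors of the endoderm. Gata4 was at 406, 361, 389 and 358 CPM in WT-S and at 376, 394, 417 and 431 in WT-A, in the order of replicates 1 to 4. In TTPΔARE mice it was at 352, 366, 362 and 346 CPM in TTP-S and at 435, 384, 481 and 423 in TTP-A. The TTPΔARE groups did not overlap, whereas the WT groups did. Gata4 rose in TTP-A by a log2 of 0.27 (SE 0.067, edgeR adjusted p = 0.0417). The WT difference was 0.096 (adjusted p = 0.311), and 0.025 in 14 libraries (adjusted p = 0.874). The interaction for Gata4 was 0.18 (adjusted p = 0.371), and 0.30 with offsets for GC content (adjusted p = 0.166). Gata6 was at 137 to 171 CPM in WT-A against 154 to 159 in WT-S, and 140.3 to 177 in TTP-A against 141 to 151 in TTP-S. It was not called in any comparison, with log2 differences of -0.029 in WT (0.097 in 14 libraries) and 0.14 in TTPΔARE mice. An annotated gene on the other strand, 1010001N08Rik, overlaps its exons, and the strandedness of the counting is not given in the sources used here. Per length the Gata4 to Gata6 ratio was 2.35 ± 0.119 (TTP-S), 2.57 ± 0.0321 (TTP-A), 2.29 ± 0.141 (WT-S) and 2.53 ± 0.423 (WT-A), each with the SD of 4 libraries.

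Hnf4a (chromosome 2, 163506808 to 163572910, plus strand) and Hnf4g (chromosome 3, 3508030 to 3658052, plus strand) encode paralogous nuclear receptors that share a DNA motif. Hnf4a was at 243, 185, 228 and 203 CPM in WT-S and at 263, 249, 249.98 and 237 in WT-A. In TTP-S it was at 183, 198, 217 and 197 CPM and in TTP-A at 270.1, 218, 253 and 263. The WT groups overlapped only through WT-S 1, and in TTPΔARE mice the lowest TTP-A library lay just above the highest of TTP-S. Hnf4a rose in TTP-A by 0.34 (SE 0.085, edgeR adjusted p = 0.0457). The WT difference of 0.22 was not called (adjusted p = 0.0800). Leaving out WT-S 1 brought it to 0.28 and an adjusted p of 0.0322. Leaving out WT-S 2 brought it to 0.15 (adjusted p = 0.223). With offsets for GC content it was 0.12 (adjusted p = 0.367), and with the mucous secretory score 0.11 (adjusted p = 0.355). Hnf4g lay in the opposite direction. Its levels were 4.95 to 8.12 CPM in WT-A against 7.05 to 8.04 in WT-S, and 6.31 to 7.97 in TTP-A against 8.30 to 10.1 in TTP-S; the TTPΔARE groups did not overlap. The Hnf4g difference of -0.40 in TTPΔARE mice was not called in 16 libraries (adjusted p = 0.148) but was in 14 (-0.40, SE 0.11, adjusted p = 0.0400), where the spread is estimated without the pair set apart by GC content. It was also called in 16 libraries with offsets for GC content (-0.38, adjusted p = 0.0423) and when the WT libraries were left out of the model (-0.39, adjusted p = 0.0427). In WT it was -0.28 (adjusted p = 0.156), and -0.048 in 14 libraries. Without WT-A 1, where Hnf4g was highest of its group, Hnf4g was called lower in WT-A than in WT-S (-0.45, adjusted p = 0.0108) and higher in TTP-A than in WT-A (0.35, adjusted p = 0.0441). Of the 3 WT-A libraries in that fit 2 are the pair set apart by GC content, where Hnf4g read low. With offsets for GC content the WT difference was 0.049, and TTP-A against WT-A was -0.12 with these offsets and -0.053 in 14 libraries, none of them called. Per length the Hnf4a to Hnf4g ratio was 11.7 ± 0.882 (TTP-S), 19.7 ± 3.55 (TTP-A), 15.5 ± 2.28 (WT-S) and 22.7 ± 4.30 (WT-A). TTP-A ratios, from 14.6 to 22.8, lay above all of TTP-S, from 10.4 to 12.4.

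Foxa1 (chromosome 12, 57540628 to 57546916, minus strand) and Foxa2 (chromosome 2, 148042877 to 148046969, minus strand) encode pioneer factors of the forkhead family. Foxa1 was at 166, 163, 184 and 176 CPM in TTP-S and at 214, 193, 218 and 210.3 in TTP-A, without overlap. Foxa1 rose in TTP-A by 0.28 (SE 0.061, edgeR adjusted p = 0.0260). With offsets for GC content it was at 0.27 and not called (adjusted p = 0.0560). In WT mice it was at 174 to 192 CPM in WT-S and 181 to 206 in WT-A, groups that overlapped (0.057, adjusted p = 0.521). This WT difference was 0.14 in 14 libraries (adjusted p = 0.157) and -0.043 with offsets for GC content. In the main edgeR fit of 16 libraries the interaction of 0.22 for Foxa1 had the lowest adjusted p among the 10 genes, 0.262. It was 0.14 in 14 libraries and 0.31 with offsets for GC content (adjusted p = 0.236). Foxa2 showed the other order. It was at 70.8, 71.3, 75.3 and 71.6 CPM in WT-S and at 81.4, 75.8, 80.6 and 94.8 in WT-A, with WT-A 4 well above the rest. Foxa2 rose in WT-A by 0.20 (SE 0.060, adjusted p = 0.0306). That call was lost in 14 libraries (0.12, adjusted p = 0.121) and in 5 of the 8 fits without 1 library: without WT-S 1, WT-S 2, WT-S 4, WT-A 3 or WT-A 4, with a highest adjusted p of 0.0828. With offsets for GC content the difference was 0.057 (adjusted p = 0.496). In TTPΔARE mice Foxa2 was at 73.5 to 78.0 CPM in TTP-S and 75.7 to 81.0 in TTP-A (0.052, adjusted p = 0.783).

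Sox2 (chromosome 3, 34650405 to 34652461, plus strand, a single exon) encodes a factor of foregut progenitors that is also high in squamous epithelium. It was at 13.4, 12.2, 12.1 and 14.1 CPM in WT-S and at 22.9, 19.8, 16.8 and 15.8 in WT-A. All 4 WT-A libraries lay above WT-S. Sox2 rose in WT-A by 0.54 (SE 0.12, edgeR adjusted p = 0.00833), and in 14 libraries by 0.72 (SE 0.12, adjusted p = 0.00328). The call held in all 8 fits without 1 library, with adjusted p-values from 0.00508 to 0.0307. In TTPΔARE mice Sox2 was at 13.9, 11.2, 13.6 and 11.4 CPM in TTP-S and at 13.4, 12.8, 15.99 and 15.9 in TTP-A. These groups overlapped, and the difference of 0.21 was not called (adjusted p = 0.436). For TTP-A against WT-A the difference of -0.38 was not called (SE 0.12, adjusted p = 0.0679), but in 14 libraries, with 2 of WT-A, it was called at -0.56 (adjusted p = 0.0281). Without WT-A 4 it was called as well (-0.45, adjusted p = 0.0492). The interaction for Sox2 was -0.33 (adjusted p = 0.361), and -0.51 in 14 libraries (SE 0.15, adjusted p = 0.184).

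Squamous genes of the forestomach were present in some biopsies. The summed level of a list of 12 (Krt5, Krt14, Trp63 and others) was 54.6 to 1138 CPM in WT-A against 2.63 to 262 in WT-S, and 4.95 to 288 in TTP-A against 30.8 to 531 in TTP-S; 2 of the 12 were called higher in WT-A, against 9.8% of all genes. In the order of replicates 1 to 4 the sums were 54.6, 1138, 636 and 67.5 CPM in WT-A and 4.03, 2.63, 262 and 40.5 CPM in WT-S. With the squamous score as a covariate the Sox2 difference in WT was 0.54 (adjusted p = 0.0455). With the smooth muscle score it was 0.49 (adjusted p = 0.197), and with the epithelium score, a choice made after seeing the data, 0.48 (adjusted p = 0.127). The SE rose from 0.12 to 0.16 and 0.17, and these fits called 65 and 75 genes in all, against 2891. The smooth muscle score did not overlap between WT-S (8.864 to 9.068) and WT-A (9.093 to 9.385). A fit with that score can hardly tell score from group. In bulk RNA a change in the number of cells of a type and a change in RNA per cell cannot be told apart.

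Foxq1 (chromosome 13, 31556134 to 31560976, plus strand) and Spdef (chromosome 17, 27714352 to 27728955, minus strand), the regulators of mucous secretory cells, moved in opposite directions in TTPΔARE mice. Foxq1 was at 249.8, 219.5, 253 and 246 CPM in TTP-S and at 128, 195, 145 and 130.1 in TTP-A, without overlap. Foxq1 fell in TTP-A by 0.70 on the log2 scale (SE 0.14, edgeR adjusted p = 0.0198). In WT mice it was at 173, 203, 225 and 281 CPM in WT-S and at 169, 192, 186 and 216 in WT-A, which overlapped (-0.21, adjusted p = 0.297). This difference ranged from -0.31 without WT-S 1, the lowest of its group, to -0.066 without WT-S 4, the highest. A530084C06Rik, annotated on the other strand, overlaps the Foxq1 exon and is not a row of the table.

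Spdef was at 41.2, 47.2, 46.8 and 46.6 CPM in TTP-S and at 146, 61.5, 73.9 and 97.1 in TTP-A. The groups did not overlap, and TTP-A varied far more than TTP-S. Spdef rose in TTP-A by 1.06 (SE 0.26, adjusted p = 0.0448). Without TTP-A 1 the difference was 0.77 (adjusted p = 0.185), and with the mucous secretory score as a covariate 0.40 (adjusted p = 0.228). In WT mice Spdef was at 120.2, 47.8, 55.4 and 58.2 CPM in WT-S and at 99.8, 104, 107 and 103 in WT-A. The WT-A libraries were close together and above 3 of the 4 WT-S libraries, and WT-S 1 was above them all. The WT difference of 0.56 was not called (SE 0.26, adjusted p = 0.134), but without WT-S 1 it was 0.94 (SE 0.21, adjusted p = 0.00751). With the smooth muscle score it was 0.32 (adjusted p = 0.696), and with the mucous secretory score 0.17 (adjusted p = 0.327). For TTP-S against WT-S the groups did not overlap, yet the difference of -0.63 was not called (adjusted p = 0.585), and without WT-S 1 it was -0.24. Per length the Spdef to Foxq1 ratio was 0.475 ± 0.0520 (TTP-S), 1.71 ± 0.895 (TTP-A), 0.873 ± 0.587 (WT-S) and 1.38 ± 0.126 (WT-A).

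Mucous genes reported downstream of Foxq1 or Spdef were read beside them, from a list of 10 of which 9 were tested. In TTP-A 3 were called higher: Muc6, the mucin of neck and gland cells (log2 2.13, SE 0.50, edgeR adjusted p = 0.0352), and Creb3l4 (1.001) and Creb3l1 (0.75), which encode factors of the secretory pathway. Muc5ac, the surface mucin, was called lower (-1.04, SE 0.22, adjusted p = 0.0228). Of all genes 1.55% were called higher and 1.35% lower there. Muc6 was not called with a block for replicate number (1.85, adjusted p = 0.0526) or with the smooth muscle score (2.03, adjusted p = 0.0673). Creb3l1 was not called with the smooth muscle score (0.72, adjusted p = 0.0605). With the mucous secretory score, computed from this same list, none of these 4 was called. In WT-A 0 of the 9 were called by edgeR (18.8% of all genes), with log2 differences of 0.73 for Muc6 (adjusted p = 0.278) and -0.55 for Muc5ac (adjusted p = 0.0859). That count rested on WT-S 1: without this library 6 of the 9 were called in WT-A, with 19.2% of all genes called. Muc6 (1.53, adjusted p = 0.0182), Agr2 (1.15), Creb3l4 (0.86), Creb3l1 (0.69) and Galnt12 (0.43) were then higher and Muc5ac lower (-0.71, adjusted p = 0.0257). In TTPΔARE mice the 4 calls held without TTP-A 2, and in the other 7 fits without 1 library Creb3l1 was called once, without TTP-A 3, and Muc5ac once, without TTP-S 1. Muc6 stayed between 1.63 and 2.41 and Muc5ac between -1.28 and -0.90 in these fits. Within groups, the library with the highest Spdef also had the highest Muc6 in WT-S (WT-S 1, 120.2 and 2358 CPM), TTP-A (TTP-A 1, 146 and 3279 CPM) and TTP-S (TTP-S 2, 47.2 and 474 CPM). It did not in WT-A, where WT-A 3 had the highest Spdef and WT-A 2 the highest Muc6. The library with the lowest Foxq1 also had the lowest Muc5ac in WT-S (WT-S 1, 173 and 3465 CPM), WT-A (WT-A 1, 169 and 3213 CPM) and TTP-A (TTP-A 1, 128 and 2524 CPM). It did not in TTP-S, where TTP-S 2 had the lowest Foxq1 and TTP-S 1 the lowest Muc5ac. The summed surface mucous genes (Muc5ac, Tff1, Gkn1 and Gkn2) were at 52679 to 60554 CPM in WT-S and 36431 to 51636 in WT-A, and at 55845 to 60085 in TTP-S and 29828 to 52909 in TTP-A, without overlap in either genotype. The part of cell composition in the Foxq1 and Spdef results was not tested.

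**Figure D4:**
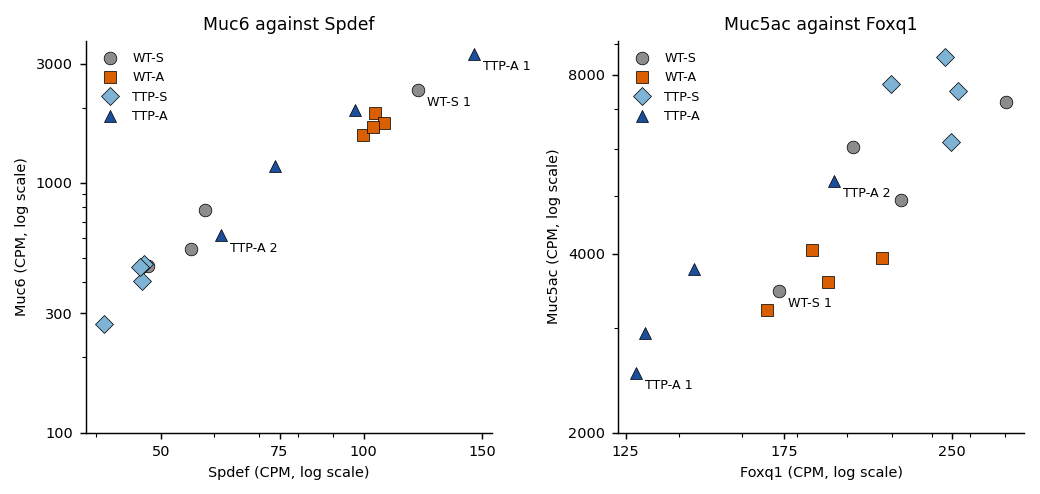
Muc6 against Spdef (left) and Muc5ac against Foxq1 (right) in CPM on log axes, 1 point per library and a colour and shape per group. WT-S 1 lies near the WT-A libraries in both panels, and TTP-A 1 holds the highest Spdef (146 CPM) and the lowest Foxq1 (128 CPM).

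Barx1 (chromosome 13, 48662998 to 48666507, plus strand), the mesenchymal member, was at 37.2, 40.3, 42.9 and 39.9 CPM in WT-S and at 43.5, 43.4, 48.8 and 58.8 in WT-A. The WT groups did not overlap, but the difference of 0.28 was not called (SE 0.11, edgeR adjusted p = 0.0934). In 14 libraries it was 0.11 (adjusted p = 0.568), and with offsets for GC content 0.029 (adjusted p = 0.857). Without WT-A 1 it was called (0.33, adjusted p = 0.0486). In TTPΔARE mice Barx1 was at 36.5 to 48.2 CPM in TTP-S and 34.7 to 49.3 in TTP-A (-0.015, adjusted p = 0.976). Smooth muscle genes summed to 6335 to 7119 CPM in WT-S and 7322 to 8945 in WT-A, and 4 of 8 were called higher in WT-A, against 9.8% of all genes. With their score as a covariate the Barx1 difference in WT was 0.048 (adjusted p = 0.891). As this score did not overlap between WT-S and WT-A, that fit can hardly tell score from group. Sfrp1 and Sfrp2, WNT antagonists downstream of Barx1, had WT differences of -0.017 and -0.32, neither called. Of 12 stomach mesenchyme genes 11 were tested: in WT-A Six2 was called higher (1.23) and Isl1 lower (-0.48), a share near the 18.8% of all genes called. Isl1 held in all 8 fits without 1 library and Six2 in 3, those without WT-S 1, WT-A 1 or WT-A 2. Of 11 other alternatives Isl1 was called in 9 and Six2 in 3, with Six2 differences from 0.51 to 1.73. Six2 was lost in 14 libraries and with offsets for GC content, among others. With the smooth muscle or epithelium score neither was called, where 0.422% and 0.487% of all genes were. For TTP-A against TTP-S edgeR called 0 of them (2.9% of all genes).

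**Figure D5:**
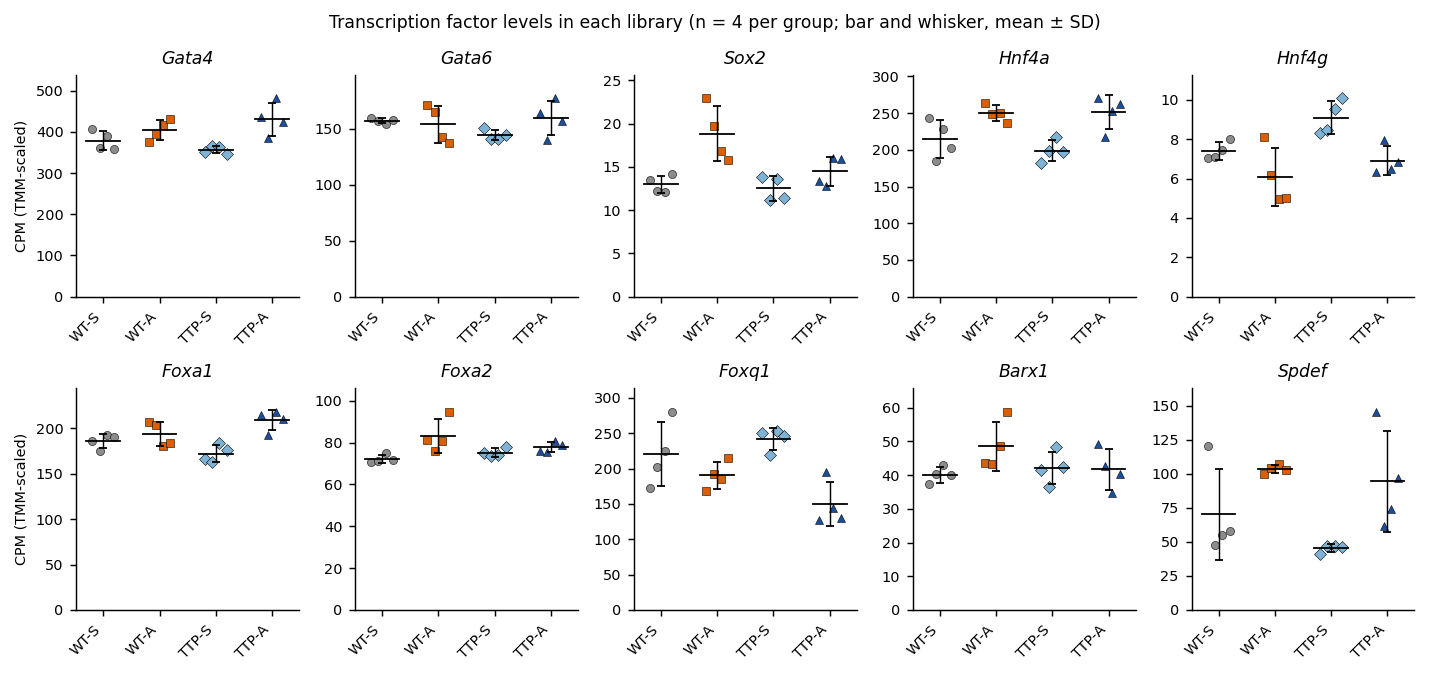
TMM-scaled CPM (vertical axes from 0) of each gene in each library, with 4 points per group in the order of replicates 1 to 4, a bar at the mean and whiskers of 1 SD. Sox2 lies higher in all WT-A libraries than in WT-S, and WT-S 1 (120.2 CPM) stands apart from its group in Spdef.

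Other gastric and endodermal transcription factors were counted from a list of 21, of which 19 were tested. In WT-A 4 were called higher: Klf5 (log2 0.39) and Sox9 (0.44), factors of proliferating and progenitor cells, Gata5 (0.30), another endodermal GATA factor, and Elf3 (0.20), an epithelial ETS factor. Esrrg, a regulator of parietal cells, was called lower (-0.53). These 5 of 19 stand against 18.8% of all genes called. Klf5, Sox9 and Esrrg held in all 8 fits without 1 library, Gata5 in 5 and Elf3 in 2. With offsets for GC content Esrrg (-0.23, adjusted p = 0.0591), Gata5 (0.17) and Elf3 (0.064) were not called. With the smooth muscle or epithelium score as a covariate none of the 5 was, but those fits called only 0.422% and 0.487% of all genes. In TTP-A 4 were called higher: Klf5 (0.30), Sox9 (0.41), Bhlha15 (0.66), which matures chief cells, and Xbp1 (0.25), which builds the secretory apparatus. Nkx6-3, an antral factor, was called lower (-2.80), at 0.324 to 4.61 CPM in TTP-S and 0.185 to 0.918 in TTP-A. These 5 of 19 stand against 2.9% of all genes. All 5 held without TTP-A 2, and in the other 7 fits Bhlha15 and Nkx6-3 held without TTP-S 1 alone and the rest in none. With the mucous secretory score none of the 5 was called (0.299% of all genes), and with the smooth muscle score Klf5 and Sox9 were (1.91%). As for the 10 genes, this list was chosen with earlier results known. For TTP-A against WT-A Bhlha15 (0.84) and Esrrg (0.48) were called higher and Elf3 lower (-0.25), against 5.17% of all genes. Bhlha15 and Esrrg held in 7 of the 8 fits without 1 library, being lost without TTP-A 3, and Elf3 held in 3. With offsets for GC content Bhlha15 was at 0.97 and called, whereas Esrrg (0.21, adjusted p = 0.138) and Elf3 (-0.15, adjusted p = 0.201) were not. None of the 3 was called with the smooth muscle or epithelium score or in a model without the S groups. Those fits called 3, 10 and 1 genes in all (0.0195%, 0.065% and 0.00665%), against 796, so these losses are not particular to the 3 factors. No factor of this list was called by edgeR for TTP-S against WT-S.

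The genes most like each of the 10 were found by Pearson r of log2 CPM over 16 libraries, each value centred on its group mean, among 11579 genes. As the highest of so many, these r values describe likeness and carry no test. The closest to Spdef were Cgref1 (r = 0.98, rho = 0.94), Muc6 (0.97, 0.95) and Agr2 (0.97, 0.90), a disulfide isomerase needed for mucin folding. Without the 2 libraries farthest from the Spdef median they were at 0.96, 0.94 and 0.94. The closest to Foxq1 were Gal3st1 (r = 0.92, rho = 0.85), Mmp28 (0.92, 0.87) and Hsd17b11 (0.92, 0.83), at 0.85, 0.85 and 0.80 without the 2 farthest. Osgin1 (r = 0.95, rho = 0.92), Atp6v0d2 (0.95, 0.94) and Sh3kbp1 (0.92, 0.88) came closest to Hnf4a, at 0.92, 0.91 and 0.87 without them. For Gata4 these were Cxcl14 (0.88, 0.89), Ccdc149 (0.88, 0.79) and Ints5 (0.87, 0.83), at 0.82, 0.74 and 0.80. For Foxa2 they were Cct7 (0.91, 0.86), Pdcd11 (0.89, 0.73) and Rrp1 (0.89, 0.59), at 0.84, 0.72 and 0.51. The closest to Gata6 were Tmtc2 (0.94, 0.83), Rspry1 (0.94, 0.91) and Luc7l (0.93, 0.74), at 0.90, 0.91 and 0.89. Senp2 (0.90, 0.86), Ncbp3 (0.89, 0.83) and Fbxo33 (0.88, 0.89) came closest to Sox2, at 0.85, 0.83 and 0.79. For Hnf4g they were Plekha8 (0.92, 0.86), Styk1 (0.92, 0.84) and Mtus1 (0.91, 0.86), at 0.88, 0.86 and 0.86. For Foxa1 they were Mark3 (0.89, 0.89), Id4 (0.89, 0.90) and Zc3h11a (0.88, 0.81), at 0.85, 0.85 and 0.86. Barx1 was nearest to Ror2 (0.90, 0.88), Gm13889 (0.88, 0.77) and Nmral1 (0.87, 0.83), at 0.82, 0.86 and 0.80.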

How the data were processed

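For the 16 libraries the authors deposited raw read counts, 1 row per gene symbol, in a single table. The submitters' processing notes name STAR 2.7.0f, featureCounts of Subread 1.6.4, DESeq2 and the mouse build mm10. The annotation and strandedness are not given in the sources used here. Groups and replicate numbers were taken from sample titles.

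These counts, unchanged, were fitted in R 4.3.3 with edgeR 4.0.16: filterByExpr, TMM scaling and a quasi-likelihood fit with a mean per group over all 16 libraries. P-values were adjusted by Benjamini-Hochberg over 15385 genes and called under 0.05. Log2 CPM used a prior count of 2. Total counts ranged from 17453930 to 25849472. Alternatives were DESeq2 1.42.0 (size factors, Wald test), no filter, only the groups compared, a replicate block, 14 libraries, loess offsets on GC content, squamous and smooth muscle scores as covariates, and leaving out each library. Covariates from epithelium and mucous secretory scores, the union of exons as length, and the alternatives for list genes, were added after seeing the data. The procedure was tested on simulated data. No column lacked a sample.

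The 10 genes and the lists were chosen with earlier results of these data known. Genes named were the 10, Zfp36, members of the lists given beside them, and for each of the 10 the 3 genes of highest Pearson r among genes with a mean log2 CPM over 2. Transcript length, GC content and AU-rich sites came from GENCODE on GRCm38, the same build as mm10, and promoters from RefSeq on GRCm38.p6. The 24 pairs of libraries within groups differed beyond sampling noise, so each counted once.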

Additional observations from a re-analysis of the deposited data

Results flagged for a closer look

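Spdef in WT-S 1 was set apart because its gap to the nearest library of its group took up more of the group's range than expected for 4 samples: 120.24 CPM against 58.2 in the next highest. Spdef in TTP-S 1 met the same criterion from below, at 41.158 CPM against 46.6 in the next lowest. The 40 combinations of gene and group were checked, and chance alone flags about 1 in 20. In WT-S 1 Muc6 was at 2358 CPM and Muc5ac at 3465, respectively the highest and lowest of WT-S, and in TTP-S 1 Muc6 at 271 and Muc5ac at 6176 CPM were the lowest of TTP-S.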

How the results depend on the processing

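For the 2 comparisons in which members were called, 38 counts were recomputed: 14 were within 1.5 times the main count, 23 lower and 1 higher. For the 3 comparisons with a main count of 0, 60 of 64 recomputed counts were also 0 and 4 were higher. For WT-A against WT-S the count was 1 (Sox2) in 14 libraries, with GC content offsets, with the squamous or mucous secretory score as a covariate and in a fit of only the groups compared. It was 0 with the smooth muscle or epithelium score (0.422% and 0.487% of all genes called), and 1 to 4 without 1 library. For TTP-A against TTP-S it was 6, with Hnf4g added, in 14 libraries and in a fit of only the groups compared, 5 with GC content offsets (Hnf4g called and Foxa1 not), 3 with no filter on low counts, 2 with the squamous or smooth muscle score, 3 with the epithelium score, 0 with the mucous secretory score, and 0 to 5 without 1 library. For TTP-A against WT-A it was 1 in 14 libraries and by the DESeq2 Wald test (Sox2 in both), and 0 to 1 without 1 library (Sox2 without WT-A 4, Hnf4g without WT-A 1). For TTP-S against WT-S and the interaction it was 0 in every alternative run. The causes were not tested.

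With the replicate block the counts were 2, 5, 0, 0 and 0, as without it. Replicate numbers did not pair the samples: same-numbered libraries of different groups deviated with correlations of -0.32 to 0.24.

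Signs changed only for differences that were not called in the main fit, though those of Hnf4g below were called without WT-A 1 with their main sign. For WT-A against WT-S these were Gata6 in 14 libraries (0.097) and with the smooth muscle score (0.055), and Gata4 (-0.054), Hnf4g (0.049) and Foxa1 (-0.043) with GC content offsets. For TTP-A against WT-A they were Gata6 (-0.076), Hnf4a (-0.028) and Hnf4g (-0.053) in 14 libraries, Hnf4g (-0.12) and Foxa2 (0.021) with GC content offsets, Gata6 (-0.032) and Spdef (0.12) with the smooth muscle score, and Spdef (0.090) with the mucous secretory score. Without 1 library, ranges that crossed 0 were -0.083 to 0.023 for Gata6 in WT-A against WT-S, -0.11 to 0.063 for Barx1 in TTP-A against TTP-S, -0.20 to 0.058 for Hnf4g in the interaction, and in TTP-A against WT-A -0.0035 to 0.10 for Gata6, -0.029 to 0.067 for Hnf4a and -0.42 to 0.025 for Spdef.

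Counts over all genes moved further. WT-A against WT-S called 2891 genes, from 65 (smooth muscle score) to 3517 (DESeq2), and 1254 to 4977 without 1 library. TTP-A against TTP-S called 446, from 46 (mucous secretory score) to 1195 (only the groups compared), and 60 to 937 without 1 library. TTP-S against WT-S called 5, from 2 to 100 (DESeq2), and 1 to 15 without 1 library. TTP-A against WT-A called 796, from 1 (only the groups compared) to 1636 (DESeq2), and 86 to 3202 without 1 library. The interaction called 9, from 0 to 262 (DESeq2), and 2 to 211 without 1 library. Depth limits Hnf4g most, with as few as 115 counts in a library. A fit of only the groups compared was not run for the interaction, which needs all 4.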
